A study of Mus musculus with 16 samples.

Results

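The lysosomal genes followed here are a list of 33 genes chosen by name. They comprised 11 proteases, 7 glycosidases, 6 genes of lipid handling, 6 membrane proteins, 2 lysozymes and progranulin. Of these, 32 had at least 1 probe among the 18749 named genes of the array, with 45 probes in all, and every one of the 45 probes passed the filter on dim probes. The remaining gene, Cd68, was not matched to a probe by name and has no value here.

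RNA of the corpus callosum of male C57BL/6 mice was measured on 16 single-colour Agilent arrays. Cuprizone (CPZ), a copper chelator that kills oligodendrocytes and strips myelin in this tract, was mixed into powdered chow at 0.2 to 0.4% by the sample labels and 0.2% by the study's methods. The groups were 3 arrays of untreated mice on normal diet, 3 of mice on CPZ chow for 2 weeks, 4 of those kept on it for 4 weeks, and 6 of animals moved to regular diet once 4 weeks on CPZ were over. The mice were 7 to 8 weeks old at the start by the methods, and no group carried a transgene. The methods name 2 days and 2 weeks of regular diet, and the 6 labels do not separate these, so the regular diet group mixes both times. The labels number the arrays as replicates without naming the animal behind each, so the p-values measure the spread between these samples.

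Lysosomes are acidic organelles in which proteins, glycans, lipids and nucleic acids taken up by the cell or delivered by autophagy are broken down. Cathepsins cut proteins, glycosidases remove sugars one at a time from glycans and glycolipids, and lipases, ceramidases and sphingolipid activators dismantle membrane lipids, myelin lipids among them. In white matter that loses its myelin, microglia and macrophages take up the debris and digest it in their lysosomes, and many of these genes are expressed at high levels in such phagocytes. Transcription factors of the TFEB family can bind short E-box motifs close to the start sites of many lysosomal genes.

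Promoter sequence was available from RefSeq (GRCm38.p6, 250 bases before to 50 bases after the start site) for 29 of the 33 genes. The palindromic E-box CACGTG, read the same on both strands, lay in this window in 8 of the 29, and in 8.09% of the 27025 genes of the table. The stretches below are shown because they hold this motif upstream of the start site, each 5′ to 3′ on the strand of its gene, with the motif in capitals. Lamp1 held 4 copies within 85 bases. In Ctsd, a second copy farther upstream is not shown.
Ctsa, chr2:164833737-164833772, plus strand: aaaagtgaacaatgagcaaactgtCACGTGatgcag
Ctsd, chr7:142387896-142387949, minus strand: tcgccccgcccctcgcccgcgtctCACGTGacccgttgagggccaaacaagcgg
Ctsl, chr13:64370727-64370770, minus strand: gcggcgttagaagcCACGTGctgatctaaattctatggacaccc
Lgmn, chr12:102439112-102439165, minus strand: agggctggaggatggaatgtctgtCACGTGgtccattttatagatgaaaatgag
Gaa, chr11:119267799-119267852, plus strand: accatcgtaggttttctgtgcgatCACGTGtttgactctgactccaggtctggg
Glb1, chr9:114401006-114401059, plus strand: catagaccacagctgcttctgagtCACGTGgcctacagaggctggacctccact
Naglu, chr11:101069997-101070050, plus strand: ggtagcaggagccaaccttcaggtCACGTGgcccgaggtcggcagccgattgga
Lamp1, chr8:13159076-13159160, plus strand: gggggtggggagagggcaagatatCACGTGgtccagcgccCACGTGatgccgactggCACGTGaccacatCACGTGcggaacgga
Of the 8 genes with an E-box, Ctsa, Ctsd, Ctsl, Lgmn, Glb1 and Naglu were higher in the regular diet group than in untreated mice. Their log2 fold changes were 1.24, 2.58, 1.49, 1.28, 1.00 and 1.84. Without regular diet arrays 1 and 2, which are treated below, they were 0.48, 1.44, 0.73, 0.60, 0.42 and 0.90. Gaa and Lamp1 stayed near the untreated level there.

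The 2 lysozyme genes, which gave the largest differences of the list, lie next to each other on chromosome 10 and are near copies. Their 120 bases before the start site are shown with the bases that differ between them in capitals, 5′ to 3′ on the minus strand. They were identical at 111 of 120 positions, or 92.5%.
Lyz1, chr10:117292869-117292988: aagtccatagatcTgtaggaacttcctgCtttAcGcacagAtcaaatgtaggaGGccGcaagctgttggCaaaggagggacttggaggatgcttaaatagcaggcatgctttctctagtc
Lyz2, chr10:117282273-117282392: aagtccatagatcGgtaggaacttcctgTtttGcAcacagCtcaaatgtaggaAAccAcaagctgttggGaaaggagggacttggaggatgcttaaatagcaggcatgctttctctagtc
Each had 1 probe. Because the genes are so alike, either probe may also have bound RNA of the other, and their values are not independent.

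All values below are scaled log2 signals, the log2 of a probe's background-subtracted brightness minus the log2 of the 75th percentile of its array, so 1 unit is a doubling and a value compares 1 probe between arrays. A gene is given by its brightest tested probe. A call required an adjusted p under 0.05 in limma, with Benjamini-Hochberg adjustment over all tested probes, and at least a 2-fold difference. Where no other setting is named, a call is that of the fit with all arrays, no block and no array weights. For 14 of the 16 samples, the scanner file that matched the sample's column in the authors' processed table was recorded under another sample, and the arrays were assigned here through those columns. Between 57.3 and 72.2% of an array's probes were well above background. All 10 oligodendrocyte and all 15 microglia markers were measured. Choroid plexus markers, a sign of adjoining tissue, varied widely within groups, from 2.41 below to 3.21 above the untreated mean among the 4-week arrays.

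Regular diet arrays 1 and 2 stood apart from the other arrays of their group. The median of the 32 lysosomal genes lay 2.47 and 2.77 above the untreated mean on these arrays, and between 0.47 and 0.76 above it on arrays 3 to 6. The median of the 15 microglia markers was 3.83 and 4.15 above the untreated mean on the same arrays and between 0.79 and 1.34 on the others. The counts and medians against regular diet, and the members and other genes with a large difference there, are therefore given with and without these 2 arrays. In bulk tissue, more cells of a type and more RNA per cell cannot be told apart.

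**Figure D1:**
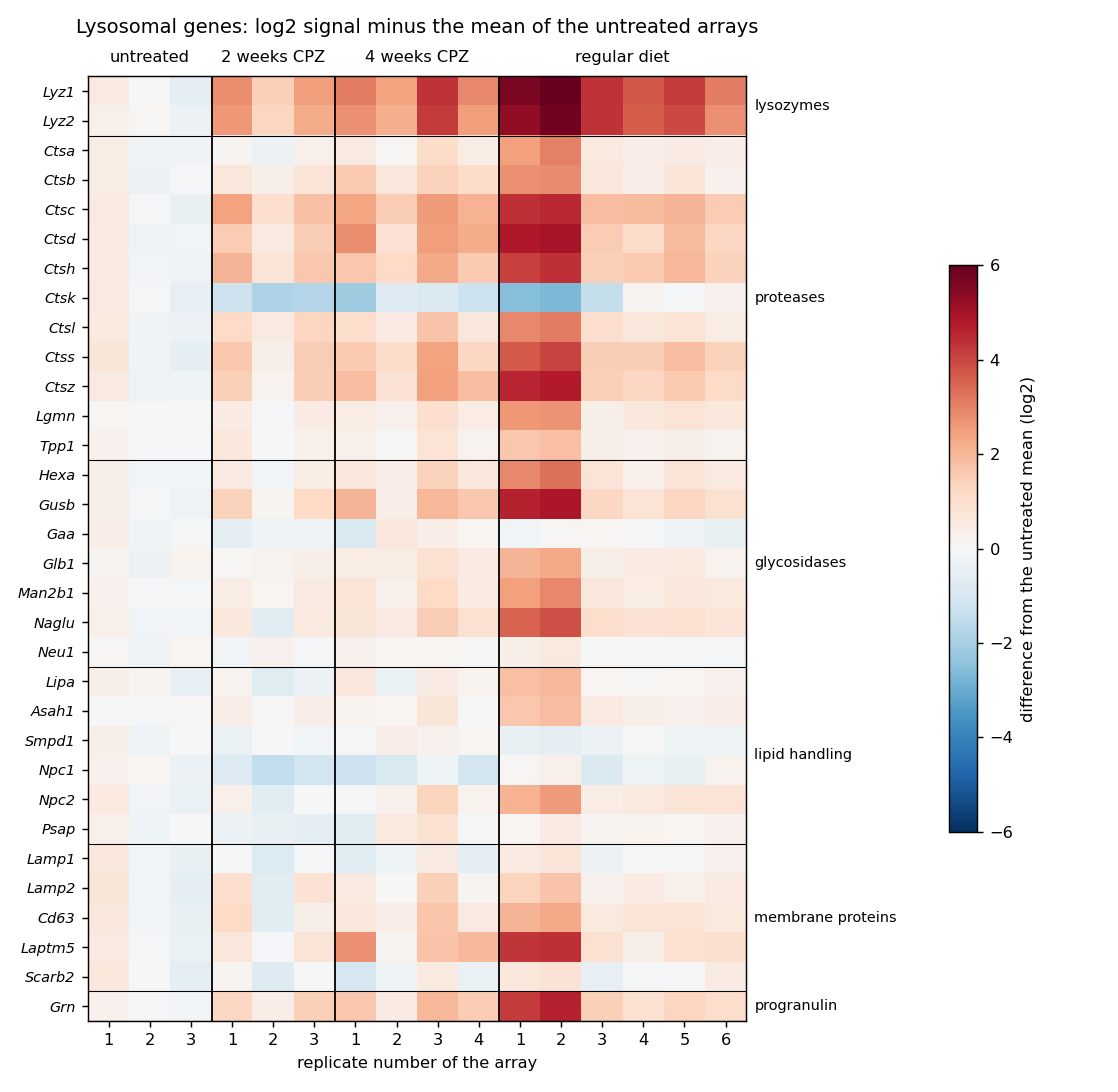
Each row is a lysosomal gene and each column an array, coloured by the scaled log2 signal minus the mean of the 3 untreated arrays (red higher, blue lower). Regular diet arrays 1 and 2 carry the darkest red in most rows, the lysozymes are red on every CPZ and regular diet array, and Ctsk is blue on every CPZ array.

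After 2 weeks of CPZ, no lysosomal gene passed the threshold. Of the 32 genes, 23 were higher than in untreated mice, where 47.4% of all tested genes were, and the median log2 fold change was 0.29 against -0.02 over all genes. The lysozymes Lyz1 and Lyz2 and the cathepsins Ctsc and Ctsh had the largest positive differences, and Ctsk and Npc1 the largest negative ones. The share of tested genes called was 0.0936% in the higher and 0.144% in the lower direction. At an unadjusted p under 0.05, 8 genes were higher and 2 were lower in limma, with 5.19% and 6.12% of all genes doing so, and the methods' ANOVA with Tukey's test and the 2-fold limit gave 2 genes before adjustment (2.17% of all genes) and none after it. On 6 genes every 2-week array lay above every untreated array (8.78% of all genes), and on 3 every array lay below (10.3%). On slide 1, which held both groups, the median was 0.24. Oligodendrocyte markers had list medians between 4.75 and 1.82 below the untreated mean on the 2-week arrays, and their part in these differences was not tested.

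After 4 weeks of CPZ, again no gene of the list passed the threshold, although the differences were mostly larger. Of the 32 genes, 28 were higher than in untreated mice (53.6% of all genes), with a median log2 fold change of 0.64 against 0.03 over all genes. Lyz1 came closest, with an adjusted p of 0.0555 in limma, followed by Lyz2 at 0.0628 and Ctsc at 0.0812. Calls made up 0.13% of all tested genes in the higher and 0.072% in the lower direction. With p under 0.05 before adjustment, 17 genes were higher (6.3% of all genes) and Ctsk and Npc1 were lower (4.93%), and the methods' test gave 2 genes before adjustment (1.52% of all genes) and none after it. On 15 genes every 4-week array lay above every untreated array, which 6.59% of all genes showed, and on 1, Ctsk, every array lay below (5.04%). Microglia markers were higher on the same arrays, with a list median between 0.93 and 1.57 above the untreated mean at 4 weeks and between -0.12 and 1.14 at 2 weeks, and their part in these differences was not tested. Choroid plexus markers, too, were higher in the mean at 4 weeks, 8 of 8 with a median log2 fold change of 0.96 and none at an unadjusted p under 0.05 in limma, and their part was not tested. Within the 2 slides that held both groups, each with 1 array a group, the median of the lysosomal genes at 4 weeks was 1.54 and 0.91. Oligodendrocyte markers had list medians between 4.54 and 1.57 below the untreated mean at 4 weeks. The count at 4 weeks depended on the treatment of the arrays: with the slide as a fixed block 8 genes were called (Ctsc, Ctsd, Ctsh, Ctss, Ctsz, Lamp2, Lyz1 and Lyz2), as were 2.38% of all genes, and with the slide as a random block 7 were (Ctsb, Ctsc, Ctsd, Ctsh, Ctsz, Lyz1 and Lyz2, beside 1.95% of all genes). Without 4-week replicate 2 the genes called were Ctsc, Ctsd, Lyz1 and Lyz2 (0.927% of all genes). Without 2-week replicate 2, Lyz1 was called (0.506% of all genes).

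Between 4 and 2 weeks of CPZ, no gene of the list was called in limma, with 0% of all tested genes called higher and 0.0144% lower. The 4-week mean was higher for 30 of the 32 genes (57.6% of all genes), with a median log2 difference of 0.41 against 0.06 over all genes. No gene of the list had an unadjusted p under 0.05 in limma, where 5.42% of all genes were higher and 3.9% lower at that level, or passed the methods' test before adjustment (1.04% of all genes). On 1 gene, the glycosidase Glb1, every 4-week array lay above every 2-week array (6.58% of all genes). By its second probe the groups overlapped, with the lowest 4-week array at -2.69 and the highest 2-week array at -2.36. On slide 4, which held both groups, the median difference was 0.65. Marker lists moved as well. The 4-week mean was higher for 15 of 15 microglia markers (median 0.57), 9 of 10 of oligodendrocytes (0.89), 8 of 8 of choroid plexus (0.71) and 8 of 8 of neurons (0.49). The medians were 0.21 for astrocytes, 0.45 for red blood cells, -0.09 for endothelium and -0.34 for neutrophils and monocytes. Their part in the lysosomal differences was not tested.

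In the mice returned to regular diet, Lyz1 and Lyz2 rose against untreated mice and passed the threshold in limma, and no gene of the list was called lower. Of all tested genes, 1.07% were called higher and 0% lower. The median log2 fold change of the 32 genes was 1.26 against -0.07 over all genes, and 28 genes were higher (40.8% of all genes). At an unadjusted p under 0.05, 22 genes were higher (7.24% of all genes) and none lower (5.03%), and 13 genes had every regular diet array above every untreated array (5.92%). By the methods' test 5 genes passed before adjustment (2.98% of all genes) and none after it, which ended both lysozyme calls (adjusted p = 0.0539 for Lyz1 and 0.0545 for Lyz2 in the ANOVA). With normexp background correction, Lyz2 was no longer called (adjusted p = 0.0864 in limma). Without arrays 1 and 2, the median was 0.60, 25 genes were higher (41.1% of all genes), 15 of them at an unadjusted p under 0.05 (5.14%) and none lower at that level (2.01%), the same number of 13 had every array above (6.96%), and Lyz1, Lyz2, Ctsc and Ctsh were called (0.972% of all genes called higher). Over the same arrays, the median log2 fold change was 1.13 for the 8 choroid plexus markers, against 0.19 with all 6 arrays, and 0.88 for the microglia markers, and their part was not tested. With the slide as a random block and all arrays, Ctsc was called beside both lysozymes (1.54% of all genes). Within slides 1, 2 and 3, the median of the lysosomal genes was 0.06, 1.87 and 1.81, and the log2 fold change of Lyz1 was 3.17, 4.55 and 5.46. Slide 2 held regular diet array 2 and slide 3 held array 1, while slide 1 held only array 4 of this group. Without untreated array 3, both lysozyme calls were lost, each with an adjusted p of 0.0573, and 0.0214% of all genes were called. With each scanner file left under the sample it was recorded for, no gene of the list was called (0% of all genes).

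Against 4 weeks of CPZ, the regular diet group showed no called gene of the list in limma, with 0% of all tested genes called in either direction. The median log2 difference was 0.54 against -0.05 over all genes, and 30 of 32 genes were higher (44.2% of all genes). At an unadjusted p under 0.05, Lyz1, Lyz2 and Npc1 were higher (6.57% of all genes) and Smpd1 was lower (13.1%), and the methods' test gave none before adjustment (0.86% of all genes). The positive median rested on arrays 1 and 2. Without them, the median was -0.10, 10 of the 32 genes were higher (43.5% of all genes), and at an unadjusted p under 0.05 Ctsk was higher (6.76%) and Ctsb and Smpd1 were lower (9.62%). No gene had every regular diet array above every 4-week array, with (2.15% of all genes) or without (4.07%) the 2 arrays. Within slides 2, 3 and 4, the median was 0.32, 0.86 and 0.13. Slide 2 held regular diet array 2 and slide 3 held array 1, while slide 4 held only array 3 of this group. This comparison and the one against untreated mice share the 6 regular diet arrays, and the CPZ comparisons share the untreated arrays. Between regular diet and 4 weeks of CPZ, 15 of 15 microglia markers (median 0.60) and 10 of 10 oligodendrocyte markers (1.09) were higher. Without arrays 1 and 2, these medians were -0.38 and 2.12. With all arrays, the lists of neurons, choroid plexus, endothelium, astrocytes, red blood cells, and neutrophils and monocytes had medians from -0.56 to -0.16. The part of these cells was not tested.

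**Figure D2:**
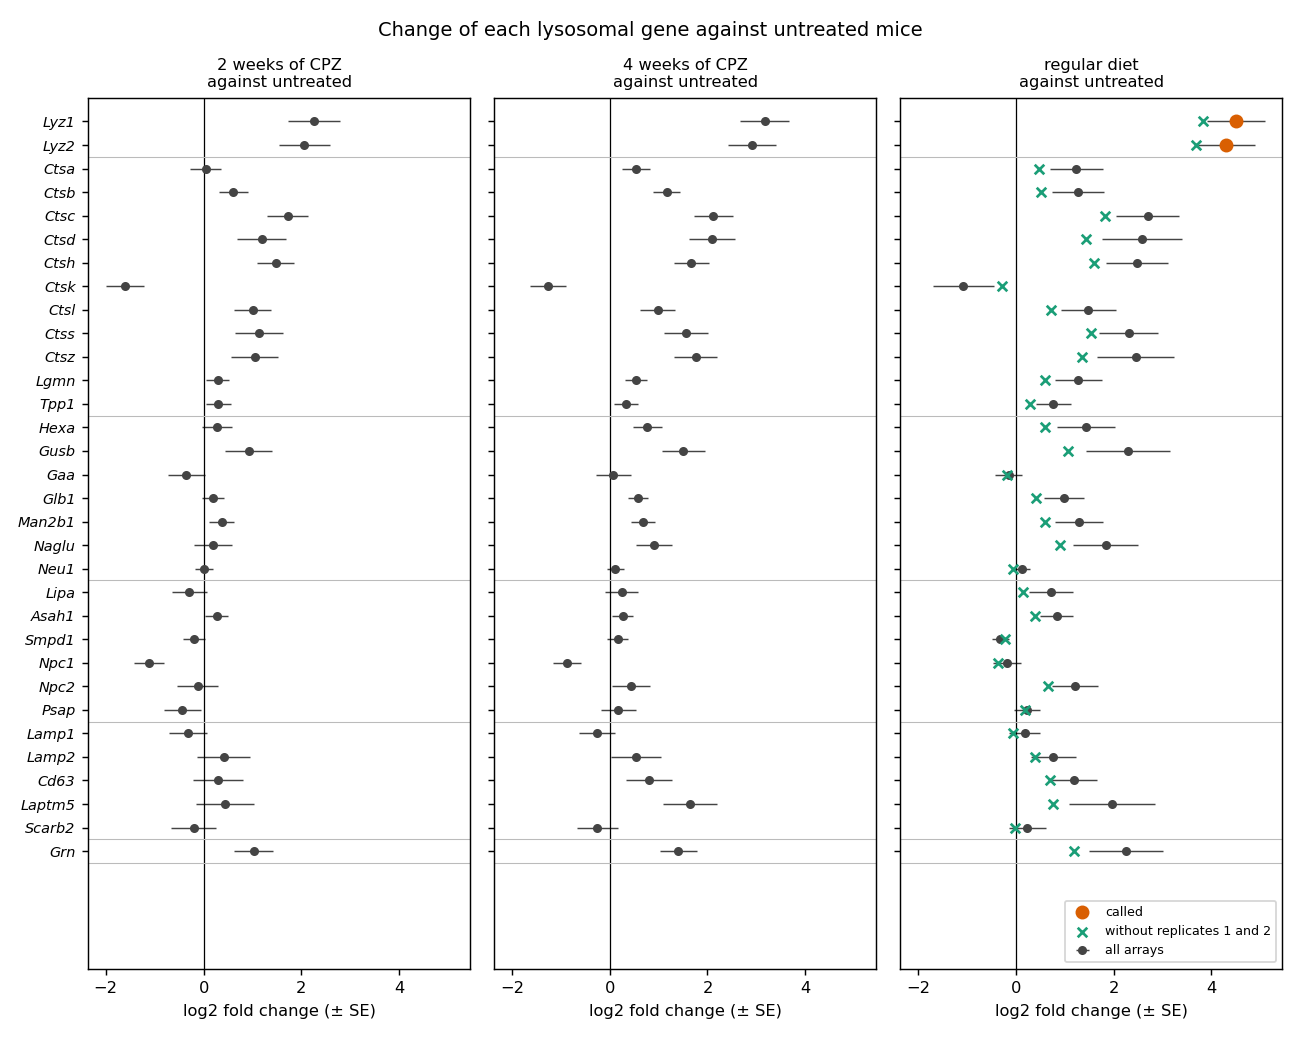
The log2 fold change of each lysosomal gene against untreated mice is plotted with its standard error at 2 and 4 weeks of CPZ and on regular diet, with genes grouped by role. Orange points mark Lyz1 and Lyz2, which passed the threshold, and green crosses show the regular diet values without arrays 1 and 2, which lie closer to 0 for most genes.

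Lysozymes break the cell wall of bacteria and are abundant in macrophages and neutrophils. Lyz1 was at -0.94, -1.49 and -2.01 on the untreated arrays and at 1.32, -0.03 and 1.04 after 2 weeks of CPZ. At 4 weeks it was at 1.57, 0.92, 2.85 and 1.42, and the 6 regular diet arrays ranged from 1.60 to 4.53 with a median of 2.80. Every treated array lay above every untreated array. The log2 fold change against untreated mice was 2.25 ± 0.53 (SE) at 2 weeks (4.76-fold, adjusted p = 0.128 in limma), 3.17 ± 0.50 at 4 weeks and 4.50 ± 0.60 on regular diet (22.6-fold, adjusted p = 0.00497).

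Lyz2 was at -3.82, -4.04 and -4.46 on the untreated arrays and at -1.49, -2.79 and -1.86 after 2 weeks of CPZ. At 4 weeks it was at -1.37, -1.93, 0.08 and -1.57, and between -1.35 and 1.67 on regular diet, with a median of 0.06. The pattern was that of Lyz1, with no overlap between untreated and treated arrays. The log2 fold change was 2.06 ± 0.52 (SE) at 2 weeks, 2.91 ± 0.49 at 4 weeks and 4.31 ± 0.59 on regular diet (19.8-fold, adjusted p = 0.00497 in limma).

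Without regular diet arrays 1 and 2, the lysozymes still passed the threshold against untreated mice, with a log2 fold change of 3.84 for Lyz1 (adjusted p = 0.00682 in limma) and 3.69 for Lyz2 (adjusted p = 0.00772). Of 12 neutrophil and monocyte markers, 6 (Ccr2, Elane, Ngp, Ltf, Cxcr2 and Mmp8) were not well above background on any of the 16 arrays, and 4 of the 12 were tested. The median of these 4 lay between 0.06 and 1.03 above the untreated mean on the 2-week arrays, between -0.23 and 0.86 at 4 weeks and between -0.80 and 0.14 on regular diet. The part of such cells in the lysozyme values was not tested.

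**Figure D3:**
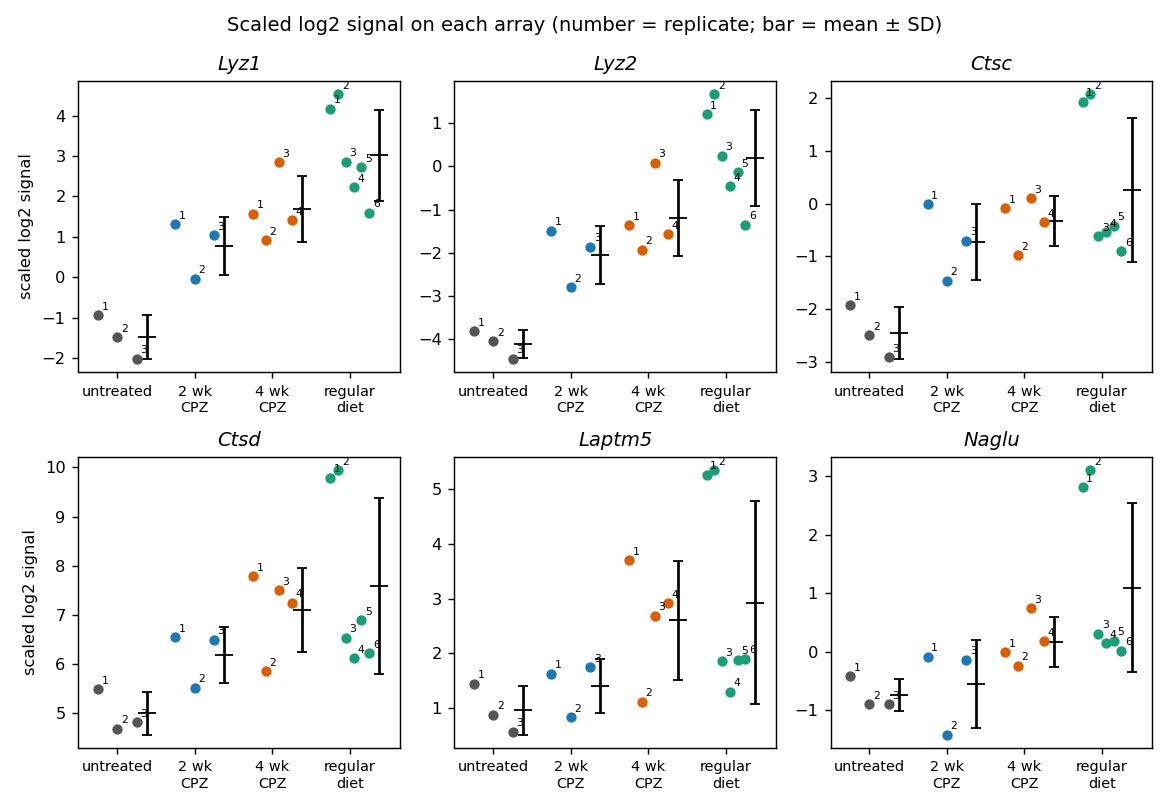
Each point is the scaled log2 signal of 1 array, numbered by replicate, for Lyz1, Lyz2, Ctsc, Ctsd, Laptm5 and Naglu in the 4 groups, and the bars give the mean and SD of each group. The lysozyme and Ctsc panels show all CPZ and regular diet arrays above the untreated arrays, and regular diet arrays 1 and 2 are the highest in every panel.

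Among the 11 proteases, 10 were higher than in untreated mice at 4 weeks of CPZ (53.6% of all genes), 8 of them at an unadjusted p under 0.05 (6.3%), and 1, Ctsk, was lower. The median log2 fold change of the group was 1.00 at 2 weeks, 1.16 at 4 weeks and 1.49 on regular diet, or 0.73 there without arrays 1 and 2. None was called in this fit, while slide blocks gave the calls named above. At 4 weeks, the largest differences were those of Ctsc, or cathepsin C, a dipeptidyl peptidase that activates serine proteases of immune cells, and Ctsd, the main aspartic protease of lysosomes.

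Ctsc was at -1.93, -2.50 and -2.91 on the untreated arrays, and at -0.02, -1.46 and -0.70 after 2 weeks of CPZ. At 4 weeks it was at -0.08, -0.98, 0.10 and -0.35, and between -0.90 and 2.07 on regular diet, with a median of -0.48. No treated array overlapped the untreated range. Against untreated mice, Ctsc had a log2 fold change of 1.72 ± 0.42 (SE) at 2 weeks, 2.12 ± 0.40 at 4 weeks and 2.70 ± 0.64 on regular diet, the last with an adjusted p of 0.0714 in limma. With the slide as a random block, the regular diet value was 2.73 with an adjusted p of 0.0498, which passed the threshold, and as a fixed block 2.83 with 0.0818. Without arrays 1 and 2 it was 1.82 with an adjusted p of 0.0401, which passed the threshold.

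Ctsd was at 5.49, 4.69 and 4.82 on the untreated arrays, and at 6.55, 5.52 and 6.50 after 2 weeks of CPZ. At 4 weeks it was at 7.79, 5.85, 7.50 and 7.25, and between 6.12 and 9.95 on regular diet, with a median of 6.72. By this brightest probe, treated and untreated arrays did not overlap, with the closest pair at 5.52 and 5.49. By the second probe, the lowest 2-week array was at 2.34, below the highest untreated array at 2.41. The 4-week and regular diet arrays lay above the untreated range on it too. Against untreated mice, Ctsd had a log2 fold change of 1.19 ± 0.51 (SE) at 2 weeks, 2.10 ± 0.47 at 4 weeks and 2.58 ± 0.83 on regular diet, or 1.44 there without arrays 1 and 2. The larger difference at 4 than at 2 weeks, 0.91 on the log2 scale, did not pass the threshold in limma (adjusted p = 0.483).

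Cathepsins H, S and Z are cysteine proteases, and each was higher at all 3 times. Ctsh, an aminopeptidase, differed from untreated mice by 1.47, 1.67 and 2.48 on the log2 scale at 2 weeks, at 4 weeks and on regular diet. Without arrays 1 and 2, its regular diet difference was 1.60 with an adjusted p of 0.0473 in limma, past the threshold. Ctss, which trims the invariant chain for antigen presentation, differed by 1.13, 1.57 and 2.31, the last being 1.54 without arrays 1 and 2. Ctsz, a carboxypeptidase, differed by 1.04, 1.76 and 2.46, or 1.35 without them. For the last 2, every 4-week and every regular diet array lay above every untreated array, while 2-week array 2 fell inside the untreated range.

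Smaller differences were measured for Ctsb and Ctsl, broad cysteine proteases with log2 fold changes of 1.16 and 0.98 at 4 weeks, for Lgmn, the asparaginyl endopeptidase that processes other cathepsins, at 0.54, and for Tpp1, a tripeptidyl peptidase, at 0.33. Ctsa, which protects neuraminidase and beta-galactosidase, was at 0.54 by its brightest probe and at -0.13 by another of its 3 probes. The second probe of Ctsb gave 0.43 at 4 weeks. The 2 probes of Ctsd gave 2.10 and 1.35 at 4 weeks. With the slide as a fixed block, the 4-week values of Ctsa and Tpp1 were 0.88 and 0.60, neither called. On regular diet, Ctsl, Lgmn, Ctsb, Ctsa and Tpp1 had log2 fold changes of 1.49, 1.28, 1.27, 1.24 and 0.77. Without arrays 1 and 2, these were 0.73, 0.60, 0.52, 0.48 and 0.30.

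Ctsk, or cathepsin K, the collagen-degrading protease of osteoclasts, went the other way. It was at -1.68, -2.25 and -2.67 on the untreated arrays, at -3.44, -4.05 and -3.96 after 2 weeks of CPZ, and at -4.31, -2.98, -3.08 and -3.48 after 4 weeks. Every CPZ array lay below every untreated array, with a log2 fold change of -1.61 ± 0.39 (SE) at 2 weeks (adjusted p = 0.133 in limma) and -1.26 ± 0.36 at 4 weeks (adjusted p = 0.214). The signal was not well above background on 1 of the 4 arrays at 4 weeks and on 2 of the 6 on regular diet. The latter were arrays 1 and 2. Without them, the regular diet difference from untreated mice was -0.28, with array 3 at -3.65 below the untreated range and arrays 4, 5 and 6 at -2.02, -2.31 and -1.95 within it. The oligodendrocyte marker list was at -3.53, -3.29, -2.82, -0.04, 0.04 and 0.65 on regular diet arrays 1 to 6, relative to the untreated mean, and its part in the Ctsk values was not tested.

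Of the 7 glycosidases, 5 were higher at 4 weeks of CPZ and on regular diet at an unadjusted p under 0.05 (6.3% and 7.24% of all genes), also without arrays 1 and 2 on regular diet (5.14%), and none was called in limma. The median log2 fold change was 0.19 at 2 weeks, 0.69 at 4 weeks and 1.29 on regular diet, or 0.60 there without arrays 1 and 2. Gusb, the beta-glucuronidase of glycosaminoglycan breakdown, had the largest difference at 4 weeks, 1.51 ± 0.45 (SE), and was 2.30 ± 0.86 on regular diet, or 1.08 without arrays 1 and 2. Naglu, which removes N-acetylglucosamine from heparan sulfate, was at -0.43, -0.90 and -0.90 on the untreated arrays and at -0.09, -1.42 and -0.14 after 2 weeks of CPZ. It was at -0.02, -0.25, 0.74 and 0.17 after 4 weeks, and between 0.02 and 3.11 on regular diet with a median of 0.24. The 2-week arrays overlapped the untreated arrays and the later ones did not. Its log2 fold change was 0.19 ± 0.39 (SE) at 2 weeks, 0.91 ± 0.37 at 4 weeks and 1.84 ± 0.66 on regular diet, or 0.90 without arrays 1 and 2. The 4-week value was 1.37 with the slide as a fixed block, not called. Against 4 weeks of CPZ, the regular diet difference of Naglu was 0.93, and without arrays 1 and 2 it was -0.00148.

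Hexa, a hexosaminidase gene needed to degrade gangliosides, Man2b1, the acid alpha-mannosidase, and Glb1, the beta-galactosidase, had log2 fold changes of 0.77, 0.69 and 0.58 at 4 weeks and 1.44, 1.29 and 1.00 on regular diet, or 0.61, 0.60 and 0.42 without arrays 1 and 2. Gaa, which degrades glycogen, and Neu1, the sialidase, showed little difference at any time, with log2 fold changes between -0.35 and 0.12. With the slide as a fixed block, Gaa was at -0.75 at 2 weeks (-0.35 without a block) and at -0.07 at 4 weeks (0.07 without a block), neither called.

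The 6 genes of lipid handling had the smallest median, -0.25 at 2 weeks, 0.21 at 4 weeks and 0.48 on regular diet, or 0.17 there without arrays 1 and 2. Npc1, the membrane protein that passes cholesterol out of lysosomes, was at -0.20, -0.36 and -0.81 on the untreated arrays and at -1.23, -1.94 and -1.56 after 2 weeks of CPZ. At 4 weeks it was at -1.68, -1.37, -0.71 and -1.55, and on regular diet between -1.35 and -0.16 with a median of -0.58. All 2-week arrays lay below the untreated range, which 1 of the 4-week arrays reached. Its log2 fold change was -1.12 ± 0.30 (SE) at 2 weeks (adjusted p = 0.175 in limma), -0.87 ± 0.28 at 4 weeks and -0.18 ± 0.28 on regular diet, or -0.36 there without arrays 1 and 2. Its soluble partner Npc2, which hands cholesterol to Npc1, had -0.12, 0.44 and 1.21 in the same comparisons, the last being 0.66 without arrays 1 and 2. Lipa, the acid lipase that frees cholesterol from its esters, had -0.30, 0.25 and 0.72, or 0.14 without these arrays. Asah1, the acid ceramidase, had 0.26, 0.27 and 0.84, or 0.39 without them, and was higher on every regular diet array than on every untreated array. Psap, the precursor of the saposins that help degrade sphingolipids, had -0.43, 0.18 and 0.24, and Smpd1, the acid sphingomyelinase, had -0.19, 0.17 and -0.31. With the slide as a fixed block, the 4-week values of Npc2, Lipa and Asah1 were 0.81, 0.63 and 0.48, none called.

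Of the 5 measured membrane proteins, Laptm5, which is expressed in blood cells and microglia, differed most. It was at 1.44, 0.88 and 0.56 on the untreated arrays and at 1.63, 0.83 and 1.75 after 2 weeks of CPZ. After 4 weeks it was at 3.71, 1.11, 2.69 and 2.91, and on regular diet it ranged from 1.30 to 5.35 with a median of 1.89. Untreated and treated arrays overlapped at every time, at 4 weeks through array 2 and on regular diet through array 4. The log2 fold change was 0.44 ± 0.59 (SE) at 2 weeks, 1.64 ± 0.55 at 4 weeks and 1.97 ± 0.88 on regular diet, and 0.77 on regular diet without arrays 1 and 2. The step from 2 to 4 weeks, 1.20 ± 0.55, was the largest of the list and did not pass the threshold in limma (adjusted p = 0.470). Cd63, a tetraspanin of late endosomes, had log2 fold changes of 0.30, 0.81 and 1.18, the last being 0.70 without arrays 1 and 2. Lamp1 and Lamp2, the main glycoproteins of the lysosomal membrane, had -0.25 and 0.54 at 4 weeks and 0.18 and 0.77 on regular diet, or -0.04 and 0.39 without arrays 1 and 2. Scarb2, the receptor that carries glucocerebrosidase to lysosomes, had -0.25 at 4 weeks and 0.23 on regular diet, or -0.02 without them. With the slide as a fixed block, the 4-week value of Lamp2 was 1.25 (adjusted p = 0.0421 in limma, called), that of Cd63 was 1.41 (not called), and those of Lamp1 and Scarb2 had the opposite sign, at 0.08 and 0.07, neither called.

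Grn, which encodes progranulin, a secreted protein that is cut into granulins in lysosomes, had log2 fold changes of 1.02 ± 0.40 (SE), 1.41 ± 0.38 and 2.26 ± 0.75 by its brightest probe, the last being 1.18 without regular diet arrays 1 and 2, none called in limma, and every treated array lay above every untreated array. Its second probe gave 0.12, 0.26 and 0.84, and on it the arrays overlapped at each time. The highest untreated array was at 0.31, and the lowest treated arrays were at -0.35, -0.38 and -0.19. Of the 12 genes with several probes, 4 had probes that differed by more than 0.5 on the log2 scale at 4 weeks and 2 on regular diet.

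**Figure D4:**
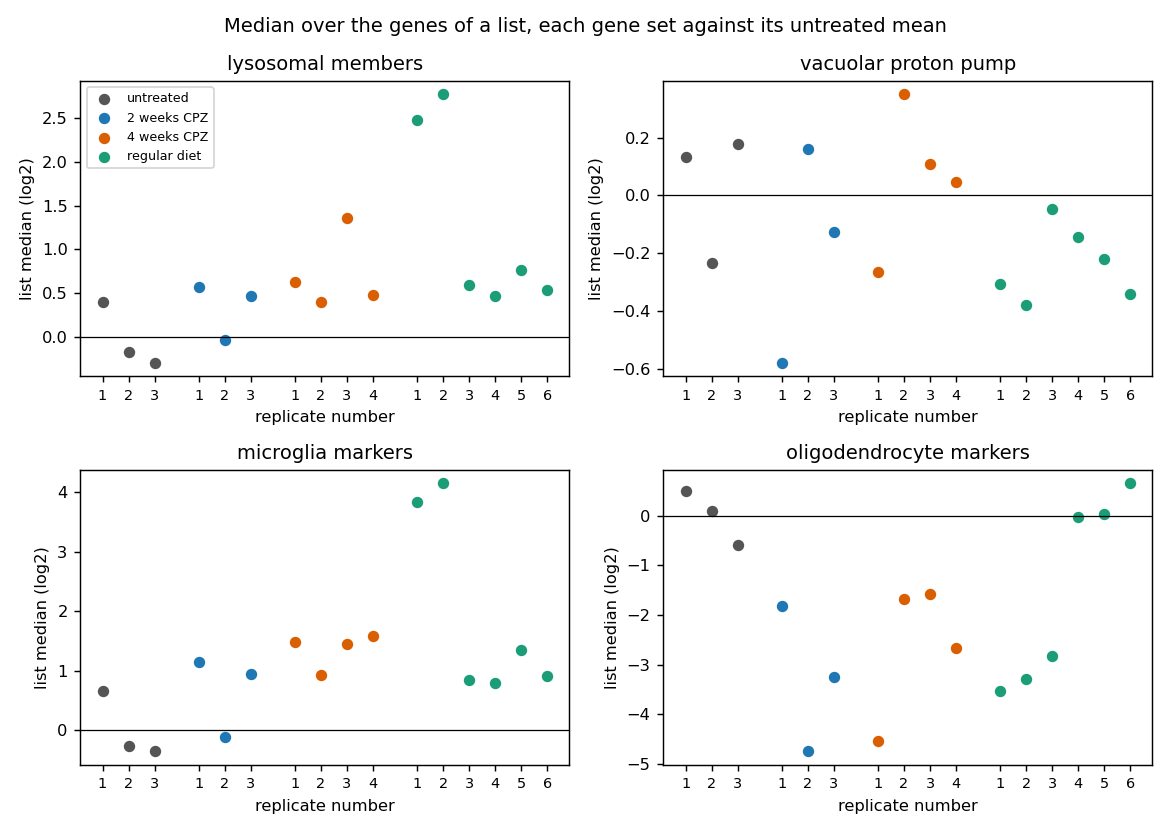
Each point is 1 array and gives the median over the genes of a list of the scaled log2 signal minus the untreated mean, for the 32 lysosomal genes, the vacuolar proton pump, microglia markers and oligodendrocyte markers. Regular diet arrays 1 and 2 stand at 2.47 and 2.77 for the lysosomal genes and at 3.83 and 4.15 for the microglia markers, and at -0.31 and -0.38 for the proton pump.

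Other lysosomal genes did not all move with the list. The 18 tested genes of the vacuolar proton pump, which acidifies the lysosome, had medians of -0.18 at 2 weeks, 0.03 at 4 weeks and -0.23 on regular diet, or -0.21 without arrays 1 and 2, and none was called in limma or reached an unadjusted p under 0.05 in these comparisons. The 9 tested genes of lysosomal sorting and the TFEB family had medians of -0.10, 0.00 and 0.14, with none called, and without arrays 1 and 2 the regular diet median was 0.05 over 10 tested genes. A list of other hydrolases, activators and lumenal glycoproteins had 23 tested genes with medians of 0.14, 0.37 and 0.67, or 0.26 on regular diet without arrays 1 and 2, and 2 of them, Gpnmb and Ctsw, were called on regular diet, where 1.07% of all genes were. The 18 tested genes of other lysosomal membrane and transport proteins had medians of -0.10, -0.02 and 0.15, the last being 0.06 without arrays 1 and 2, with 1, Slc11a1, called on regular diet. The 4 tested of 7 cathepsin inhibitors had medians of 0.14, 0.51 and 0.44, or 0.20 on regular diet without these arrays, with 1, Cst7, called at each time and the lowest value, -0.54, on regular diet.

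The largest differences in these lists came from Cst7, or cystatin F, an inhibitor of cathepsins C and L in immune cells. Its signal was not well above background on any untreated array, and it rose at least 31.6-fold at 2 weeks (adjusted p = 0.0386 in limma), at least 87.1-fold at 4 weeks (adjusted p = 0.0196) and at least 181-fold on regular diet (adjusted p = 0.00667). Without arrays 1 and 2, the last bound was at least 61.5-fold (adjusted p = 0.00372 in limma). For these bounds, an untreated array counted at the dimmest signal that passed the background test on it, or at the probe's own signal where that was brighter. Gpnmb, a glycoprotein of lysosomes in phagocytes, had a log2 fold change of 5.77 ± 1.09 (SE) on regular diet (adjusted p = 0.0221 in limma), or 4.57 without arrays 1 and 2 (adjusted p = 0.0407), and was well above background on 2 of the 3 untreated arrays. Slc11a1, a metal transporter of phagocytic vesicles, rose by 3.13 ± 0.58 (adjusted p = 0.0217), or 2.39 without arrays 1 and 2 (adjusted p = 0.0225). Ctsw, a cathepsin of cytotoxic lymphocytes, was not well above background on any untreated array and on 5 of the 6 regular diet arrays it was, a rise of at least 2.16-fold (adjusted p = 0.0414). Without arrays 1 and 2 it was not called, at least 1.83-fold with an adjusted p of 0.141 in limma.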

How the data were processed

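Total RNA of the corpus callosum was hybridised by the authors to 16 single-colour Agilent 4x44K arrays, 4 to a slide. The authors deposited spot intensity values from Feature Extraction (version 11.0.1.1 in the submitters' processing notes and file headers), background-subtracted and detrended but not scaled between arrays, and a processed table of log2 values scaled to the 75th percentile and set to the median of the untreated arrays. Each column of that table correlated with 1 scanner file at 0.99998 or more and with any other at 0.883 or less. This matched another sample than the recorded one for 14 of 16 columns, 13 of them in another group. The arrays were assigned through the columns.

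Control spots and 48 to 126 outlier spots per array were left out, spots of a probe averaged, and the array's 75th percentile subtracted on the log2 scale. Probes were named by matching accessions to a RefSeq table (GRCm38.p6), which named 27479 of 41174 probes (66.7%). Probes that passed the background test on all arrays of 1 or more groups were tested with limma 3.58.1 in R 4.3.3. The CPZ comparisons used 10 arrays (27505 probes, 13883 named genes, 7 residual degrees of freedom) and the regular diet comparisons all 16 (27785 probes, 13987 named genes, 12 residual degrees of freedom). A call needed an adjusted p under 0.05 and a fold of at least 2. The scripts were tested on simulated data. The number of arrays limits the precision. Members, lists, motifs and the assignment of arrays were chosen with earlier results of these data known. Values on each array, or the range and median for regular diet, are given for members called in any comparison and for the 3 with the largest difference in each, and Ctsk and Npc1 were added after their values were seen. The normexp alternative used the median spot signal, the planned mean not being a column of the files. Leaving out regular diet arrays 1 and 2 was chosen after seeing the data.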

Additional observations from a re-analysis of the deposited data

Results flagged for a closer look

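By its brightest probe, Glb1, the lysosomal beta-galactosidase, had 1 array far from the others among the 4 arrays of 4 weeks of CPZ. Replicate 3 was at a scaled log2 signal of 0.94, with the next array at 0.50. Of 64 groups of arrays looked at in this way, 1 stood out, where chance alone marks about 1 group in 20. The same array was the highest of its group for Lyz1, Lyz2, Ctsc, Ctsh and Ctss. It was also the highest of its group for the choroid plexus list, whose median was 3.21 above the untreated mean, with all 8 markers above the highest untreated array, for the astrocyte list, at 0.80, for the 4 tested neutrophil and monocyte markers, at 0.86 with 3 above the highest untreated array, and for the oligodendrocyte list, at -1.57. Their part in the Glb1 value was not tested. The second Glb1 probe ranged from -2.69 to -2.05 on the 4-week arrays with a median of -2.17. Its highest array was therefore close to the median and did not stand out.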

How the results depend on the processing

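The count of called genes ranged over the alternatives from 0 to 13 at 2 weeks (above 0 in 1 of 24), 0 to 12 at 4 weeks (6 of 24), 0 to 1 between them (1 of 24), 0 to 13 on regular diet against untreated mice (28 of 31) and was 0 against 4 weeks in all 31. Of the medians, 121 of 124 alternative values moved by less than the spread between replicates. On regular diet, that spread takes in arrays 1 and 2, so a move below it does not show a stable median. Leaving both out took the median from 1.26 to 0.60 against untreated mice. Against 4 weeks of CPZ, the median went from 0.54 to -0.10.
With array weights, whose estimate did not fully converge, 13 genes were called at 2 weeks, 12 at 4 weeks, 1 between 4 and 2 weeks and 13 on regular diet against untreated mice, beside 7.85, 6.37, 4.86 and 4.81% of all genes. With slide as a fixed block, 8 were called at 4 weeks (median log2 fold change 1.04), as a random block 7 (and 3 on regular diet against untreated mice), and with only probes well above background on all arrays 2 (0.338% of all genes). On regular diet against untreated mice, normexp background correction gave 1 (0.215% of all genes) and the methods' test 0 (0.043%). Leaving out both regular diet arrays 1 and 2 gave 4 there, and a Naglu difference against 4 weeks of CPZ of -0.00148.
With the scanner files as recorded, 0 genes were called on regular diet (0% of all genes, median 0.30, against 1.26). In that setting, the median between 4 and 2 weeks was -0.0586 with 15 of 32 genes higher (30 as assigned here). Between regular diet and 4 weeks, 15 of 32 were higher (30 as assigned). Among the 3 genes with the largest difference in each comparison, 4 values changed sign: Ctsc at 4 weeks (-0.0570), Lyz1 and Ctsd between 4 and 2 weeks (-1.29 and -0.0254) and Naglu between regular diet and 4 weeks (-0.10). The cause of these changes was not tested beyond the assignment itself.
Leaving out 1 array at a time gave 0 to 4 called genes at 4 weeks. On regular diet against untreated mice it gave 0 to 2 (0 without untreated replicate 3, beside 0.0214% of all genes). The medians then ranged from 0.17 to 0.50 at 2 weeks, 0.49 to 0.86 at 4 weeks, 0.23 to 0.55 between them, 0.97 to 1.79 on regular diet against untreated mice and 0.28 to 0.88 against 4 weeks. With slide as a fixed block, Laptm5, Lyz1 and Ctsd differed by 1.58, 1.44 and 1.34 between 4 and 2 weeks (1.20, 0.92 and 0.91 without a block). Between regular diet and 4 weeks, Naglu, Lyz1 and Lyz2 then differed by 0.67, 1.07 and 1.17 (0.93, 1.33 and 1.40 without a block). None of these was called.
Same-numbered arrays did not deviate together (19 pairs, correlations from -0.81 to 0.34, 5 over 0.1), so the numbers were not taken as pairs. With the replicate number as a block, 2 genes of the list were called on regular diet against untreated mice (0.122% of all genes) and 0 in the other comparisons (0% of all genes). Over the alternatives, the adjusted p of Lyz1 on regular diet ranged from 6.11e-06 to 0.753 and that of Lyz2 from 7.28e-06 to 0.738.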
